A study of Mus musculus with 2 samples.

Results

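The cytosolic ribosomal protein genes encode the protein part of the ribosomes that translate nuclear mRNA. They were taken as the 78 of 16184 gene columns whose symbol fits the naming pattern of large subunit (Rpl, 47 columns) and small subunit (Rps, 31 columns) genes. The pattern matched 84 columns, of which Rps27l and 5 annotated pseudogenes (Rpl6l, Rpl32l, Rps3a2, Rps3a3, Rps4l) were left out. The pattern misses 6 other genes that encode parts of the ribosome, and Rplp0, Rplp1, Rplp2, Rpl36al and Fau among them are given separately.

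The cells were live leukocytes (CD45-positive, DAPI-negative) sorted from lungs of Scgb1a1cre/iDTR mice with tumours grown from 150000 HKP1 cells, a lung adenocarcinoma line of the mouse, given into the tail vein. In this strain the promoter of Scgb1a1, a gene of airway club cells, drives a tamoxifen-dependent Cre that switches on a diphtheria toxin receptor, so the sorted leukocytes are not themselves the cells the toxin targets. Mice of both groups were given tamoxifen from day 3 to day 7 (2 mg for 20 g of body weight), an anti-PD-1 antibody on day 6 (250 µg) and 4 Gy of radiation daily from day 10 to day 12, and lungs were taken 24 to 48 h after radiation. The PBS group is the control, and the DT group received 2 doses of diphtheria toxin at 600 ng per 20 g on days 8 and 9. Each group is 1 10x Genomics 3′ library, with 4 mice per group and no label tying a cell to a mouse. There was therefore no replicate of either group and no test between them was possible. Intervals below are exact 95% intervals, and the limit given for a count of 0 is 3 counts of the total; both cover counting error only.

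A ribosome holds 1 copy of most of its proteins, so their genes are expressed together and at high levels. Their mRNAs start with a run of pyrimidines, the terminal oligopyrimidine (TOP) motif, through which mTOR signalling sets their translation. Resting lymphocytes have little cytoplasm, yet ribosomal protein mRNA makes up a large part of their mRNA, while mature neutrophils make little new protein and hold few ribosomes.

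The PBS library held 5702 cells and 31089434 UMIs (unique molecular identifiers, each counting 1 captured mRNA molecule), and the DT library 6203 cells and 27896059 UMIs. Filters on genes, UMIs and mitochondrial reads kept 5651 and 5896 cells, and 8 barcodes occurred in both libraries. Cells were assigned to 7 lineages by detected marker genes: Cd4, Cd8b1 (both T cells), Ncr1 (NK cells), Cd79a (B cells), Csf3r with S100a8 (neutrophils), Ly6c2 with Ccr2 (monocytes) and C1qa (macrophages). Cells that passed 2 or more of these gates (596 PBS, 586 DT) were left out as possible doublets, and 1351 and 1523 cells passed none. The loss fell unevenly. The Ly6c2-Ccr2 gate kept 267 PBS and 257 DT cells and lost 271 and 261. The C1qa gate kept 251 and 325 and lost 290 and 297, while the Cd79a gate kept 1396 and 1069 and lost 165 and 114. Monocyte and macrophage values thus rest on a selected part of these cells, and whether the cells left out were doublets was not tested. Each gate held the markers of its lineage, with those of other types beside them in some. Summed neutrophil markers stood at 100096 and 87702 CPM (a gene's UMIs scaled to a fixed library total) in the Csf3r-S100a8 gate of PBS and DT against at most 293 in the other 6 gates. The Cd4 gate held T cell markers at 6695 and 6928 CPM and macrophage markers at 218 and 60 CPM, and the Ncr1 gate held NK markers at 3669 and 3781 CPM beside T cell markers at 1195 and 1070 CPM. The Ly6c2-Ccr2 gate held monocyte markers at 5199 and 5680 CPM, macrophage markers at 1483 and 2337 CPM and erythroid markers at 4.405 and 811 CPM. In the Cd79a gate epithelial markers stood at 75.5 CPM in PBS and 1066 in DT and erythroid markers at 6.63 and 331 CPM, and in the Csf3r-S100a8 gate epithelial markers stood at 1223 and 18.8 CPM. The part of these other cell types in the results was not tested.

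The mouse genome carries many processed copies of ribosomal protein genes, and in these tables the copies took most of the UMIs. Columns of 483 copies of members were found, 158 by name and 325 by sequence, and 74 of the 78 members had at least 1. Identity to the best match had a median of 97.5% and was 79.7% at the lowest, since columns found by name passed no identity limit. Member columns held 7.20% of all UMIs in PBS and 6.65% in DT, copy columns held 12.8% and 11.9%, and both together 20.0% and 18.5%. Only 35.97% (PBS) and 35.9% (DT) of the UMIs of members and copies thus stood in the member's own column. The own column held under 10% of these UMIs for 28 members, under 50% for 50, from 50% to 90% for 22 and at least 90% for 6. For a member with a low share the own column does not measure the gene, so the shares by gate and the single members that the results turn on are also given with the copies added, an alternative chosen after the data were seen.

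The last 60 coding bases of 4 members and of the copy with most of their UMIs show how alike they are. Capitals mark the bases at which a member and its copy differ, and sequences run 5′ to 3′ on the coding strand.
Rps16: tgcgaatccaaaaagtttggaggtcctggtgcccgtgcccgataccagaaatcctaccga
Rps16-ps2: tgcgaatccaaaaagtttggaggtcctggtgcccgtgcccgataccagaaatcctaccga
Rps20: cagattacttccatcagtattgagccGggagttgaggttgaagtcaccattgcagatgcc
Gm4332: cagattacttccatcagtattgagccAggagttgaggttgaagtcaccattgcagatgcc
Rpl24: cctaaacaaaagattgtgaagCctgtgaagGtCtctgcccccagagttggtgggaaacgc
Gm12254: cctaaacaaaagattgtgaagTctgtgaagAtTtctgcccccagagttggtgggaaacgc
Rps9: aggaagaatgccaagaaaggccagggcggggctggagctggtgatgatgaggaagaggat
Gm5905: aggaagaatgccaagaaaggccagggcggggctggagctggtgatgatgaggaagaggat

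Rps16 and its pseudogene Rps16-ps2 were identical over these 60 bases, and in the PBS library the gene was given 408 UMIs and the pseudogene 117471. Rps20 differed from Gm4332 at 1 base, with 7088 UMIs against 141162. Rpl24 differed from Gm12254 at 3 bases, with 67 UMIs against 49576. Rps9 and Gm5905, which matched over the 60 bases and at 97.3% of all aligned bases, were split the other way, with 84171 UMIs in the gene and 33005 in the copy. In GENCODE M21 on GRCm38, Rps16 lies at chr7:28350652-28353155 on the plus strand and Rps9 at chr7:3703993-3706897 on the plus strand, while Rps16-ps2 lies at chr5:129128077-129128517 and Gm5905 at chr7:141177885-141178464, both on the minus strand. Rps20 lies at chr4:3831334-3835665 on the minus strand and Gm4332 at chr3:119709516-119709861 on the plus strand, and Rpl24 at chr16:55966275-55971435 on the plus strand and Gm12254 at chr11:58508791-58509261 on the minus strand. The split was close to the same in every gate and library, with 35.5% to 37.1% of the UMIs in member columns, so totals over the members can be compared between gates even though single own columns may not.

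**Figure D1:**
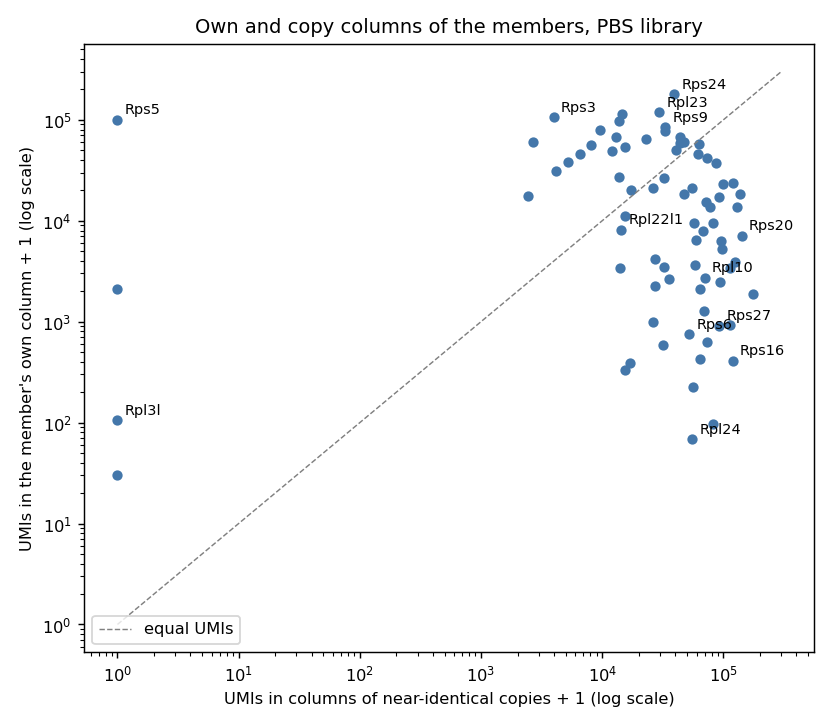
UMIs in the own column of each of the 78 members (vertical axis) against UMIs in the columns of its copies (horizontal axis). Values are from kept cells of the PBS library, both with 1 added and on log scales, and the dashed line marks equal UMIs. Points below the line, such as Rps16 (408 UMIs of its own) and Rpl24 (67), have most of their UMIs in copies, and the 4 points at the left edge have no copy column.

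The share of a cell's UMIs in member columns differed about 10-fold between lineages and kept the same order of gates in both libraries. The median over cells was highest in the Cd8b1 gate, at 12.1% in PBS and 12.1% in DT. The Cd79a gate followed with 9.79% and 9.54%, then the Cd4 gate with 7.98% and 7.60% and the Ncr1 gate with 6.95% and 7.33%. Myeloid cells were lower, with 5.81% and 5.96% in the Ly6c2-Ccr2 gate and 5.17% and 5.42% in the C1qa gate. The Csf3r-S100a8 gate was lowest, at 1.16% and 1.22%. The ratio of the highest to the lowest gate was 10.4 in PBS and 9.91 in DT. With copies added the medians in the same order of gates were 34.1%, 27.4%, 22.6%, 18.9%, 16.1%, 14.3% and 2.92% in PBS, so that ribosomal protein transcripts made up about 1 in 3 UMIs of a Cd8b1 cell.

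Neighbours in this order overlapped from cell to cell. The middle 50% of Cd4 cells in PBS spanned 6.18% to 10.9%, which covers the medians of the Cd79a and Ncr1 gates, and the Ly6c2-Ccr2 and C1qa gates spanned 5.10% to 6.61% and 4.11% to 6.48%. The Csf3r-S100a8 gate spanned 0.877% to 1.58% and did not reach the lower quartile of any other gate. Gates differed in depth, with a median of 2344 UMIs per cell in the Csf3r-S100a8 gate, 2832 in the Cd79a gate, 5349 in the Cd8b1 gate and 7531 in the C1qa gate of PBS. With each cell thinned to 1000 UMIs, which left out 75 PBS and 71 DT cells (34 and 43 of them in the Csf3r-S100a8 gate), the ratio of highest to lowest gate was 10.0 in both libraries. Large and small subunit members kept nearly equal parts in each gate, for example 5.18% and 5.81% of summed UMIs in the Cd8b1 gate and 1.11% and 1.23% in the Csf3r-S100a8 gate of PBS.

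**Figure D2:**
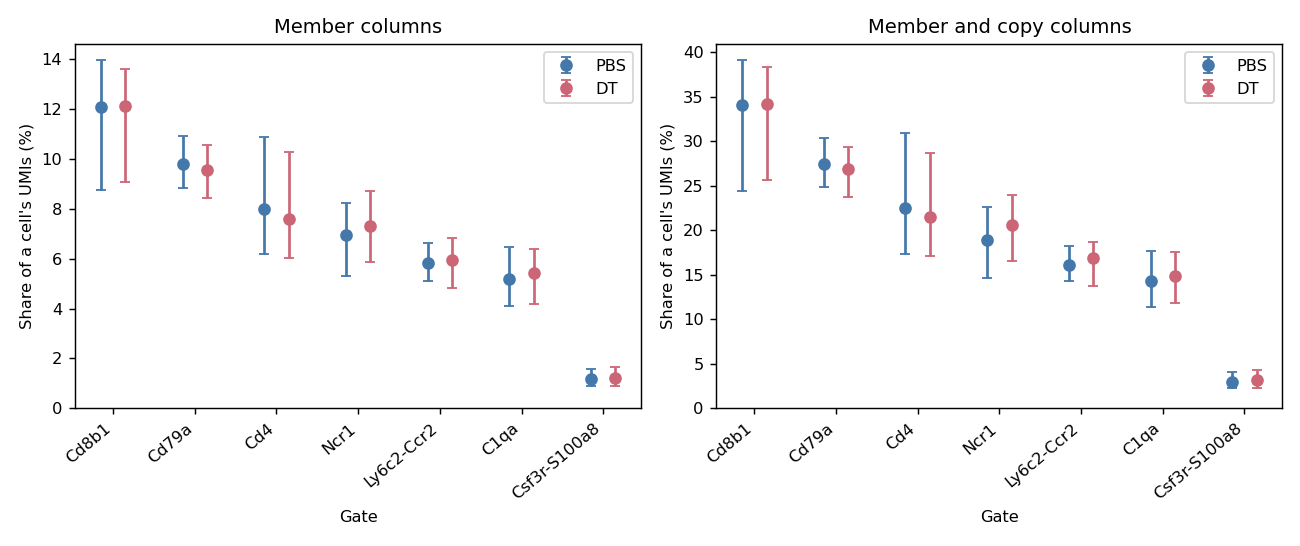
Share of a cell's UMIs (%) in the member columns (left) and in member and copy columns together (right) for the 7 gates, PBS in blue and DT in red; points are medians over cells and bars span the middle 50% of cells. The order of gates is the same in both libraries, from 12.1% in the Cd8b1 gate down to 1.16% and 1.22% in the Csf3r-S100a8 gate in the left panel.

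Within the T cell gates the share differed with markers of cell state, in subsets chosen after the data were seen. Cd8b1 cells with Ccr7, the homing receptor of naive and central memory T cells, had a median of 13.5% in PBS and 13.04% in DT, against 9.28% and 10.0% in those without. Cd4 cells with Ccr7 had 11.7% and 10.7%, against 7.10% and 7.11%. Cells with markers of activation or other fates were lower in both libraries: Cd8b1 cells with Pdcd1, which encodes PD-1, had 8.34% and 8.25% against 13.1% and 12.6% without it, and Cd4 cells with Foxp3, the regulatory T cell factor, had 6.47% and 6.27% against 8.35% and 7.93%. Cd8b1 cells with Mki67, a proliferation marker, had 8.16% and 8.99%, below the 12.7% and 12.4% of those without, and were deeper (11142 against 5056 UMIs in PBS). With copies added the Cd8b1 cells with Ccr7 had 37.9% and 36.2% against 25.6% and 28.7%, and those with Pdcd1 22.7% and 23.4% against 37.0% and 35.2%. Ccr7-positive and Ccr7-negative Cd8b1 cells had median depths of 5025 and 5794 UMIs in PBS. In the Ncr1 gate the few cells with Mki67 (15 PBS, 9 DT) had 7.67% and 8.18% against 6.86% and 7.28%.

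The Csf3r-S100a8 gate was mixed. Its share from summed UMIs was 2.34% (95% interval 2.32 to 2.35) in PBS and 2.12% (2.11 to 2.14) in DT, above its median cell. Cells with a share above 3% made up 10.8% and 8.81% of the gate, were deep (median 6958 and 6438 UMIs against 2213 and 2075) and often carried genes of mononuclear phagocytes: Csf1r was detected in 75% and 59.4% of them against 28.2% and 24.2% of the rest, and H2-Aa in 58.0% and 52.8% against 9.81% and 7.47%. A gate narrowed after seeing the data to cells with Retnlg, a neutrophil gene, and without Csf1r and H2-Aa held 398 PBS and 580 DT cells. In these the summed share was 1.18% (1.16 to 1.20) and 1.32% (1.30 to 1.34), and the median cell had 1.05% and 1.14%, or 2.68% and 2.92% with copies. RNA free in the suspension would add the mean profile to every cell: with 10% of each cell's UMIs taken as free RNA, the ratio of highest to lowest gate rose to 25.8 in PBS and 20.5 in DT, while the level of free RNA in these libraries was not measured.

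The genes listed with the members showed which parts of the translation machinery were low in the same gate. A list of 18 genes taken to have a TOP start held translation factors such as Eef1a1, and others such as Tpt1 and Npm1. They summed to 1.87% of UMIs in the Cd8b1 gate of PBS and 1.81% in DT, the highest of the 7 gates. In the Csf3r-S100a8 gate they were lowest, at 0.444% and 0.398%. Nucleolar genes of ribosome assembly were also lowest there, at 0.0755% and 0.0689% against 0.251% and 0.260% in the Cd8b1 gate, and mitochondrial ribosomal protein genes stood at 0.269% and 0.257% against 0.529% and 0.527% in the Ly6c2-Ccr2 gate. Initiation factors without a TOP start spanned 0.291% to 0.376% over the gates of PBS, with 0.324% in the Csf3r-S100a8 gate, within the range of the other gates. Genes of TOP control and growth signalling were highest in the Csf3r-S100a8 gate at 0.257% and 0.255%. Most of this total came from 1 gene, Mxd1, a Myc antagonist, at 1769 and 1759 CPM. The list without Mxd1 was not compared between gates.

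Promoters were compared because the members are known for their TOP start. RefSeq promoter sequences on GRCm38.p6, from 250 bases before to 50 bases after the annotated start, were matched for 59 of the 78 members. The letters CTTTC lay within 20 bases of the start on the transcribed strand in 17 of 59 members (28.8%) and in 5.38% of all 27025 promoters of the table, and CTTTTC lay there in 6.78% and 1.395%. The longest run of C and T touching that window had a median of 7 bases in members and 5 in all promoters. On either strand anywhere in the window, CCGGAAG, the core of ETS factor sites, lay in 39.0% of member promoters and 9.12% of all, AAGATGGC, a YY1 core, in 8.47% and 2.88%, and GGGCGG, an Sp factor core, in 57.6% and 35.9%. Of 11 genes from the list taken to have a TOP start that were matched here, CTTTC lay within 20 bases of the start in 1 and CTTTTC in 0. None of these letter strings holds another. These are letter matches in the annotated window, whose start need not be the one used in these cells.

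The window from 40 bases before to 20 after the start is printed for Rps9 and Rps25, which were uneven between lineages, and for the paralogues Rpl22l1 and Rpl3l. Capitals mark the longest run of at least 5 C and T bases near the start.
Rps9: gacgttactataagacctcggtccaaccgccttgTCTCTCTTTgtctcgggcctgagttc
Rps25: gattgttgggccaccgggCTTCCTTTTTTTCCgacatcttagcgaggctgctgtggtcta
Rpl22l1: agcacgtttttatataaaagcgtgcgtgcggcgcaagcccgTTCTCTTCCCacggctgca
Rpl3l: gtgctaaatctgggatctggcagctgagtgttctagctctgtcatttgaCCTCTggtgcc

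These windows lie at chr7:3704001-3704060 for Rps9, chr9:44407674-44407733 for Rps25, chr3:28805468-28805527 for Rpl22l1 and chr17:24727786-24727845 for Rpl3l, all on the plus strand. The run was 9 bases long in Rps9, 14 in Rps25 and 10 in Rpl22l1, and 5 in Rpl3l. The Rps9 run covers the annotated start, the Rps25 run ends before it and the Rpl22l1 and Rpl3l runs lie after it.

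The part of the ribosomal pool that a member held differed between lineages by 1.35-fold in the median of the 59 most abundant members, and a few differed by 2-fold or more. Each member's UMIs were taken as a share of the member UMIs of the gate, with a small constant added, and a member was called uneven where the highest gate had at least 2 times the lowest in both libraries and with the same highest gate. Of 74 members with at least 100 UMIs in each library, 6 were called (Rpl10, Rps9, Rpl7l1, Rps27, Rps6 and Rpl17), and 21 at 1.5 times. Of all 9870 genes tested 71.7% were called on the same scale, which is centred on the members and moves every other gene with the member share, so nothing is read from that contrast. On the CPM scale, where a member's ratio also carries the low total share of the Csf3r-S100a8 gate, 60 members were called. With the narrowed neutrophil gate 21 were called. The share of all genes was taken only for the 2-fold rule on member UMIs, so the other counts are not read as results about the members. With copies added 4 were called (Rps9, Rpl7l1, Rps27a and Rpl12), and Rps9 and Rpl7l1 were called both ways. Among the 59 members with at least 1000 UMIs in each library the median ratio was 1.34 with copies, and 40 had the same highest gate in both libraries. The most even of these were Rpl23 with a ratio of 1.08 in each library, Rpl30 with 1.13 and 1.16, and Rpl8 with 1.14 and 1.23.

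Rps9, a protein of the small subunit that helps to form the decoding region, stood apart in neutrophils. It held 9.35% (9.12 to 9.58) of the member UMIs in the Csf3r-S100a8 gate of PBS and 9.70% (9.49 to 9.91) in DT, where it was the member with most UMIs. In the other gates it held 2.90% to 4.66% in PBS and 2.93% to 4.39% in DT, with the lymphocyte gates lowest and the Ly6c2-Ccr2 and C1qa gates between. The highest gate stood 3.22 times above the lowest in PBS and 3.31 times in DT, and 3.21 and 3.41 times with the copy column added. In the narrowed neutrophil gate Rps9 held 19.0% of member UMIs in PBS and 16.7% in DT, or 10.1% and 9.05% of the pool with copies.

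On the scale of all UMIs the neutrophil level of Rps9 was close to that of the Ncr1 and C1qa gates and below that of the Cd8b1 gate. The gates differed 1.54-fold, the smaller ratio of the 2 libraries. The member total was low in neutrophils, so this level made up a larger share of member UMIs there. Rps9 was measured at 2184 CPM in the Csf3r-S100a8 gate of PBS, against 2214 in the Ncr1 gate, 2364 in the C1qa gate and 3367 in the Cd8b1 gate, and at 2057, 2362, 2340 and 3277 CPM in DT. Rpl23 fell over the same gates from 5875 CPM in the Cd8b1 gate to 1207 in the Csf3r-S100a8 gate of PBS. Rps9 was detected in 96.7% and 95.1% of Csf3r-S100a8 cells, while Rpl7 was detected in 49.4% and 48.9% and Rps4x in 26.8% and 22.5%. These are own columns, which held 71.8% of the UMIs of Rps9, 87.3% of Rpl7 and only 35.1% of Rps4x. No annotated gene overlaps Rps9. With cells of 2 or more gates kept, the ratio of Rps9 fell to 1.94 and it was no longer called, and without the Csf3r-S100a8 gate it was 1.496.

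Rps27a, which encodes ubiquitin joined to a small subunit protein, was also highest in neutrophils as a share of member UMIs, at a smaller size. It held 4.38% and 4.77% of member UMIs in the Csf3r-S100a8 gate and 2.24% to 3.21% (PBS) and 2.27% to 3.39% (DT) elsewhere, a ratio of 1.95 and 2.10, or 2.04 and 2.19 with copies. In the narrowed gate its part was 7.35% and 7.36%. Rps25, a small subunit protein used by some internal ribosome entry sites, held 0.732% and 0.763% in the Csf3r-S100a8 gate and 0.378% to 0.635% elsewhere in both libraries, with ratios of 1.86 and 2.02 (1.80 and 1.91 with copies). Rps25 overlaps Trappc4 and Ccdc84 on the opposite strand, and Rps27a overlaps Clhc1. Rpl37, a zinc-binding protein of the large subunit, was also highest in the Csf3r-S100a8 gate in both libraries. Its ratios were 1.85 and 1.95 (1.74 and 1.75 with copies), and its own column held 14.0% of its UMIs. On the CPM scale the gates differed 2.53-fold for Rps27a, 2.56-fold for Rps25 and 2.54-fold for Rpl37, against 1.54-fold for Rps9. Each of these is the smaller ratio of the 2 libraries.

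Other members were lowest in neutrophils. Rps15a held 1.27% of member UMIs in the Cd8b1 gate and 0.746% in the Csf3r-S100a8 gate of PBS, and 1.36% in the Cd4 gate and 0.716% in the Csf3r-S100a8 gate of DT, ratios of 1.70 and 1.90 (1.72 and 1.87 with copies). Rps24, a large contributor to the pool, held 9.24% and 9.74% in the Cd79a gate and 5.62% and 5.38% in the Csf3r-S100a8 gate, ratios of 1.64 and 1.81 (1.57 and 1.72 with copies). By own columns, 18 of the 59 members with at least 1000 UMIs were lowest and 9 highest in the Csf3r-S100a8 gate in both libraries. With copies added, 14 of all 78 members were highest there in both. No share of all genes was taken for these counts, so they are not read as results about the members. Rps15, with ratios of 1.67 and 1.76, held 1.04% in both the C1qa and the Csf3r-S100a8 gate of PBS and 1.10% and 1.06% in DT, and was lowest in the Cd79a gate at 0.624% and 0.627%. With copies its ratios were 1.75 and 1.80, with the Csf3r-S100a8 gate highest in PBS and the C1qa gate in DT.

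**Figure D3:**
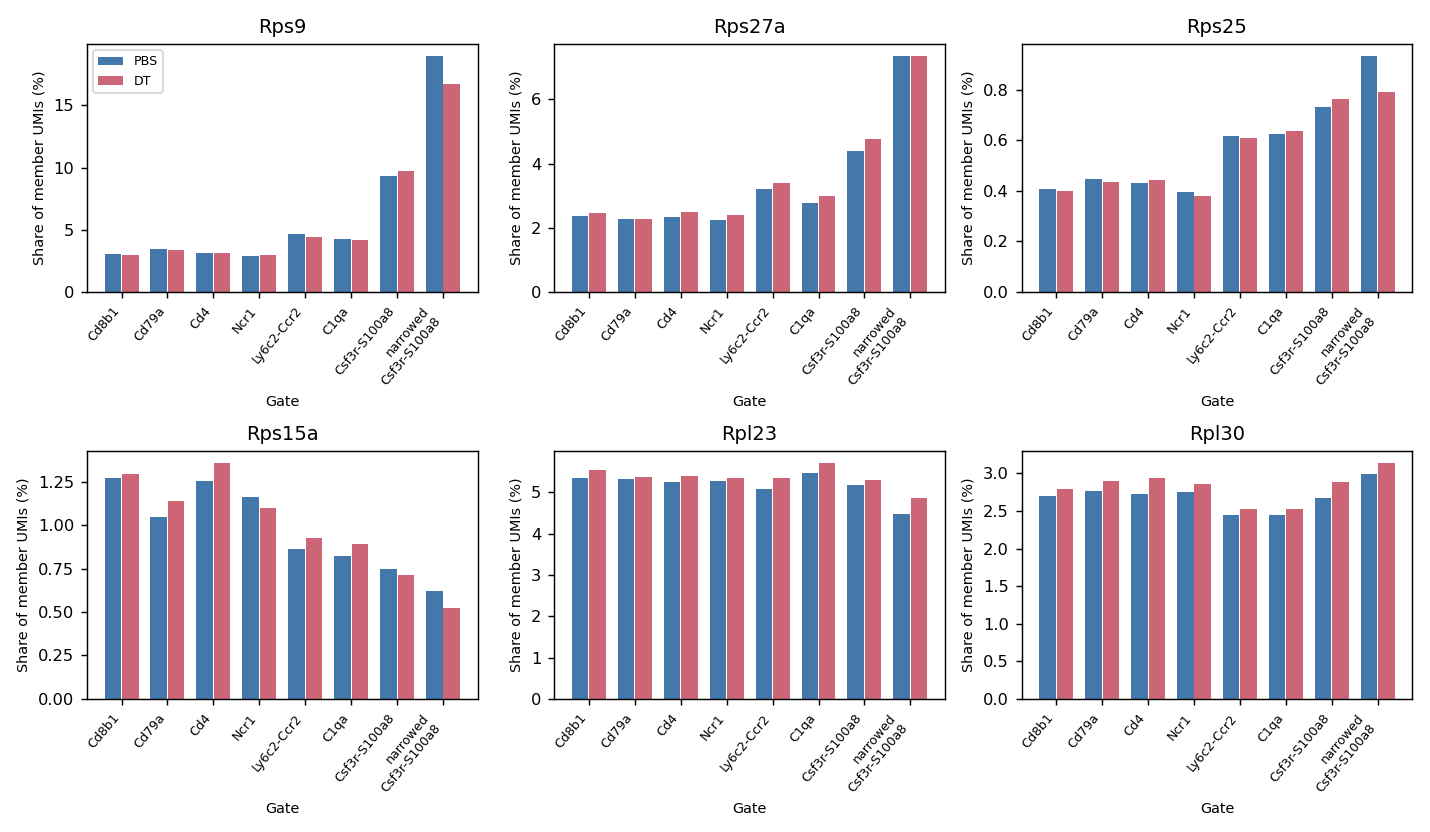
Share of all member UMIs (%) held by 6 members in each gate, PBS in blue and DT in red, with the narrowed Csf3r-S100a8 gate as the last pair of bars; vertical axes start at 0 and differ between panels. Rps9 rises from about 3% in lymphocyte gates to 9.35% and 9.70% in the Csf3r-S100a8 gate, Rps27a and Rps25 are also highest there, Rps15a is lowest there, and Rpl23 and Rpl30 are nearly level over the 7 gates.

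The calls on Rpl10, Rps27, Rps6 and Rpl17, all with low own columns, did not hold once copies were added. Rpl10, an X-linked member at the subunit joining face whose own column held 4.38% of its UMIs, was highest in the C1qa gate with ratios of 4.05 and 3.62. With its copies the ratios were 1.86 and 1.85, under the threshold, and the highest gate was Ly6c2-Ccr2. Rpl27a (own column 3.21%), Rpl27 (3.43%) and Rpl18 (2.61%) had ratios of 1.99, 1.98 and 1.93 in PBS on their own and of 1.09, 1.27 and 1.13 with copies. Rpl7a (7.26%) kept its ratio, with 1.71 on its own and 1.70 with copies in PBS, and was lowest in the Cd79a gate in both libraries.

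Paralogues of members were rarer than their partners. Rpl3l, the paralogue that replaces Rpl3 in heart and skeletal muscle, was found at 105 UMIs in PBS and 61 in DT, and 31 of 46 and 32 of 44 UMIs within the gates lay in the Csf3r-S100a8 gate. It was detected in 3.45% and 2.58% of these cells and in 3.00% and 1.56% of Ly6c2-Ccr2 cells, against 0.270% of the deeper Cd8b1 cells in PBS. It was seen in 0 of 365 Cd8b1 cells in DT, which allows a share of cells with a UMI of up to 0.822%, and in 0 of 243 (PBS) and 0 of 201 (DT) Ncr1 cells, which allows up to 1.23% and 1.49%. At this depth cells without a UMI may still express the gene. Its total in the gates lay under the minimum of 100 UMIs and it was not tested. Rpl7l1, an assembly factor related to Rpl7, was measured at 42.7 and 40.1 CPM in the Csf3r-S100a8 gate and 65.2 to 77.9 CPM elsewhere in PBS and 56.6 to 86.3 in DT, a flatter profile than that of Rpl7, which spanned 532 to 2712 CPM in PBS. Rpl22l1, which can replace Rpl22 in the large subunit, ranged from 72.1 to 453 CPM in PBS and Rpl22 from 455 to 2049, both lowest in the Csf3r-S100a8 gate and highest in the Cd8b1 gate. Rpl39l, a testis paralogue of Rpl39, had 29 UMIs in PBS and 0 in DT, and Rpl10l was not among the columns. Of the pseudogene columns left out, Rps4l is annotated as a copy of Rps4x, and its UMIs are counted with the copies.

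X-linked members and members with known roles outside the ribosome varied over the gates as follows. Rps4x spanned 320 CPM in the Csf3r-S100a8 gate to 2072 in the Cd8b1 gate of PBS and Rpl39 580 to 3204. Their own columns held 35.1% and 74.0% of their UMIs. Rpl36a held 0.422% of its UMIs in its own column and cannot be read alone. Rps3, also a DNA repair factor and 96.3% in its own column, held 4.08% to 5.36% of member UMIs in PBS. Rpl5 and Rpl11, which bind MDM2 when ribosome assembly fails, held 3.92% and 14.99% of their UMIs in their own columns, Rps6, the target of S6 kinase, 1.68%, and Rpl13a, a translational repressor once phosphorylated, 7.51%.

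DT and PBS differed little in the total share. The median cell of DT stood 0.374 percentage points below PBS in the Cd4 gate and 0.249 below in the Cd79a gate, and 0.0693 above in the Cd8b1 gate, 0.381 in the Ncr1 gate, 0.0649 in the Csf3r-S100a8 gate, 0.152 in the Ly6c2-Ccr2 gate and 0.244 in the C1qa gate. As a ratio of DT to PBS these medians lay between 0.953 and 1.06, and between 0.954 and 1.09 with copies. All of them were small against the spread between cells, whose middle 50% in the Cd4 gate alone covered 6.18% to 10.9% in PBS and 6.02% to 10.3% in DT. The direction in the Csf3r-S100a8 gate depended on the measure: the summed share was 0.908 times that of PBS (0.898 to 0.918), while the median cell was 1.06 times, and in the narrowed gate the median was 1.09 times.

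The libraries also differed in sex. Of cells that could be called from Xist and Y-linked genes, 75.7% to 97.1% by gate were male in PBS and 16.7% to 69.4% in DT. Sex and treatment cannot be told apart over all cells. Within male-called cells the DT to PBS ratio of the median share was between 0.933 and 1.18, and within female-called cells between 0.793 and 1.90, the latter in the Csf3r-S100a8 gate with 8 PBS cells and 95 DT cells.

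Single members were compared in each gate as the log2 ratio of DT to PBS CPM with 5 CPM added, over genes with at least 100 UMIs in the gate, and called past 0.32 in either direction. In the Cd4 gate 2 of 66 members were higher and 0 lower in DT, where 12.4% and 6.4% of all genes tested were. In the Cd8b1 gate 4 of 69 were higher and 0 lower (all genes 9.22% and 7.7%), in the Ncr1 gate 2 and 2 of 62 (8.71% and 10.2%), and in the Cd79a gate 2 and 2 of 72 (17.5% and 5.84%). In the Csf3r-S100a8 gate 0 were higher and 4 of 63 lower (11.9% and 7.78%), in the Ly6c2-Ccr2 gate 1 and 1 of 66 (9.22% and 9.2%), and in the C1qa gate 3 higher and 0 lower of 68 (10.2% and 6.27%). Over all gates this gave 14 higher and 9 lower calls among 466, a split that median-of-ratios scaling and trimmed-mean scaling each turned to 13 and 13. In each of the 14 pairs of gate and direction the share of members called lay below that of all genes, a difference that was not tested. Many members held far more UMIs than the minimum of 100, and counting error moves genes near that minimum past the fold more easily. Nothing about the members is therefore read from this difference. With copies added there was 1 higher call of 532, Rpl7l1 at 0.36 in the Ncr1 gate, and 3 lower calls, all in the Csf3r-S100a8 gate: Rpl3 at -0.42, Rps18 at -0.33 and Rpsa at -0.32. These 4 are named because of their values. In the narrowed neutrophil gate (398 PBS and 580 DT cells) Rpl3, Rps18 and Rpsa with copies were higher in DT as a share of the gate's UMIs. Their UMIs in PBS and DT were 98 and 181 for Rpl3, 175 and 280 for Rps18, and 236 and 361 for Rpsa. The 3 lower calls thus did not hold in that gate.

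The median log2 ratio of the members was between -0.03 and 0.05 in 6 gates and -0.14 in the Csf3r-S100a8 gate, where the median of all genes was 0.04. In the Csf3r-S100a8 gate 11 of 63 members lay above 0. In the narrowed gate this median turned to 0.18, over 42 members. In the gate as first set, male-called cells gave -0.61 and female-called cells 0.85, the latter with 8 PBS cells.

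**Figure D4:**
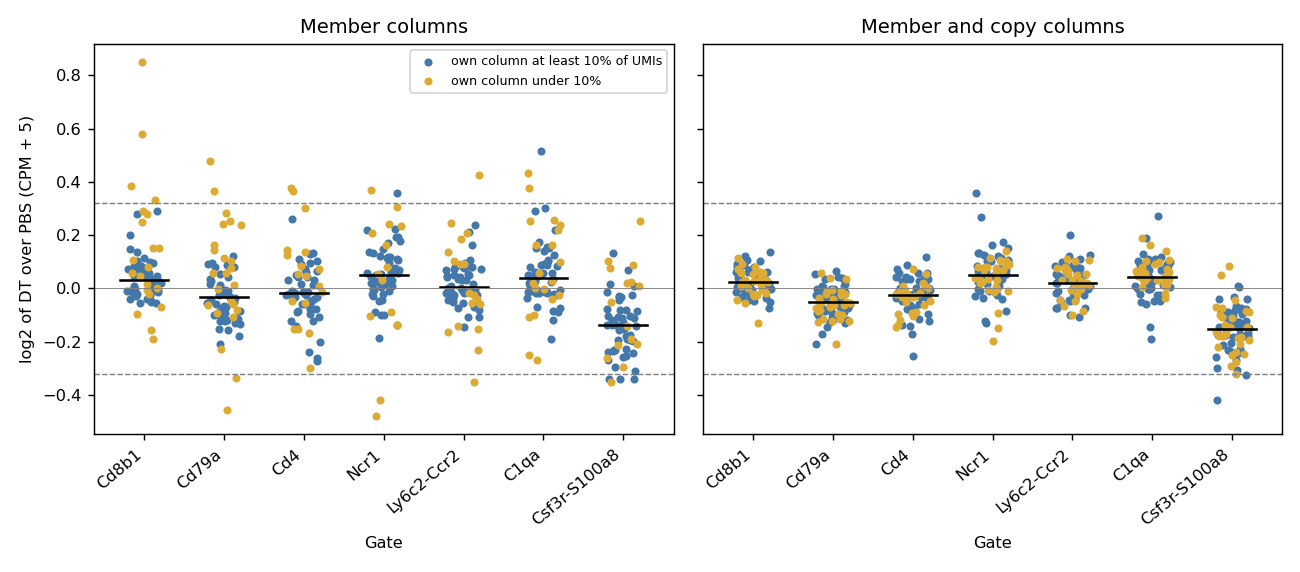
Log2 ratio of DT to PBS CPM, with 5 CPM added, for each member in each gate, from its own column (left) and with its copies added (right); 1 point is 1 member with at least 100 UMIs, orange points have under 10% of their UMIs in their own column, black lines are medians over members and dashed lines mark 0.32 up and down. All but 4 points of the right panel lie within the dashed lines, and the Csf3r-S100a8 gate has the lowest median in both panels, -0.14 on the left and -0.15 on the right.

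Of the 23 calls, 18 were of members with under 10% of their UMIs in their own column. Rpl10 was higher in DT in all 7 gates by its own column, past the fold in 4, with 0.38 in the Cd8b1 gate (interval 0.10 to 0.71, 167 and 199 UMIs), 0.36 in the Cd79a gate and 0.43 in the Ly6c2-Ccr2 gate. With its copies the same 3 ratios were -0.04, -0.10 and -0.07. Rpl18 stood at 0.38 (0.07 to 0.72) in the Cd4 gate and at -0.35 (-0.74 to -0.02) in the Ly6c2-Ccr2 gate, and at -0.01 and 0.01 with copies. Rps6 reached 0.85 in the Cd8b1 gate on 78 and 135 UMIs and 0.06 with copies.

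Rpl22l1, with 37.8% of its UMIs in its own column, kept its direction in 5 of 7 gates. It was above 0 in all 7 gates by its own column, with 0.51 (0.34 to 0.72) in the C1qa gate (344 UMIs in PBS, 639 in DT), 0.26 (0.11 to 0.42) in the Cd4 gate and 0.24 (0.03 to 0.45) in the Ly6c2-Ccr2 gate. With its copies it was 0.27 (0.16 to 0.39), 0.12 (0.02 to 0.21) and 0.11 (-0.01 to 0.24), under the fold, and below 0 in the Cd79a and Csf3r-S100a8 gates at -0.04 each. Rpl13a, whose own column was lower at -0.34 in the Cd79a gate (-0.62 to -0.11) and -0.30 in the Cd4 gate, stood at -0.12 and -0.09 with copies. Rpl14 was at -0.27 (-0.37 to -0.18) in the Cd4 gate and at -0.17 with copies, Rpsa at -0.23 and -0.07 in the Cd79a gate, Rps28 at 0.29 and 0.08 in the Cd8b1 gate, and Rpl27 at 0.43 (0.14 to 0.79) and 0.19 in the C1qa gate and 0.28 and -0.05 in the Cd79a gate. Rpl36 and Rps19 stood at 0.19 each in the Ncr1 gate and at 0.15 and 0.27 with copies.

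Members named by the same rule with over 1000 UMIs in the gate in each library included ones with small ratios. Rps3 was at -0.05 (-0.09 to -0.02) and Rps14 at -0.05 (-0.10 to -0.01) in the Cd8b1 gate, Rps14 at -0.10 (-0.19 to -0.01) in the Ncr1 gate and Rpl19 at -0.14 (-0.26 to -0.03) in the Ly6c2-Ccr2 gate. In the Csf3r-S100a8 gate, where the median of the members was itself low, Rpl21 was at -0.34 (-0.54 to -0.17) and Rpl6 at -0.35 (-0.77 to -0.02), with -0.27 and -0.22 after adding copies. Rps4x and Rps18 lay past the fold there too, at -0.34 each, and at -0.31 and -0.33 with copies. These intervals hold no difference between mice, so no ratio here can be read as an effect of the toxin.

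Calls among the listed genes around the ribosome are read beside the shares of all genes given above, 8.71% to 17.5% higher and 5.84% to 10.2% lower by gate. The genes taken to have a TOP start gave 1 higher and 3 lower calls of 125 over the gates. These were Btf3 at 0.49 in the Ly6c2-Ccr2 gate, Eif4a2 at -0.47 in the Ncr1 gate, and Npm1 at -0.40 and Eif3h at -0.35 in the Csf3r-S100a8 gate. Nucleolar assembly genes gave 13 higher and 10 lower of 148, initiation factors without a TOP start 7 and 4 of 90, and mitochondrial ribosomal protein genes 13 and 20 of 398. Of the 7 initiation factor calls that were higher, 5 were the X-linked gene Eif2s3x, at 0.35 to 0.62, in libraries that differ in sex as given above. Genes of TOP control and growth signalling gave 14 higher and 1 lower of 67, with 3 of 7 higher in the Ncr1 gate, 3 of 11 in the Cd8b1 gate and 0 of 9 in the Csf3r-S100a8 gate, and 6 of the 14 were Mxd1, at 0.58 to 0.78 outside the Csf3r-S100a8 gate. Mxd1 was most abundant in the Csf3r-S100a8 gate, at 1769 and 1759 CPM. Cells of that gate made up 14.4% of kept cells in PBS and 20.4% in DT, and the part of free neutrophil RNA in the other gates was not tested. Ribosomal genes outside the pattern gave 4 higher and 1 lower of 47: Fau, with 1.3% of its UMIs in its own column, at 0.38, 0.35 and 0.40 in the Cd4, Cd79a and Csf3r-S100a8 gates, Rpl36al at 0.44 in the C1qa gate, and Rplp0 at -0.37 in the Csf3r-S100a8 gate. Rplp0, the stalk protein P0, was measured at 973 CPM in PBS and 752 in DT there. Rplp1 was split from its copies as the members were, with 39806 of 142115 UMIs in its own column in PBS, while Rplp2 (42058 UMIs) and Rack1 (51511 UMIs), a scaffold protein of the small subunit, were not.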

How the data were processed

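The authors deposited log2(CPM + 1) per cell and gene. Partek, Seurat, STAR and mm10 are named in the submitters' processing notes, with no version or setting. The plan assumed UMI counts: undoing the log and dividing by each cell's smallest step gave whole UMIs for 100% of values above 0, within 1%. Cells were kept from 200 genes and 500 UMIs upward and with mitochondrial UMIs up to 10%; no doublet caller was run. In the main setting a constant of 5 was added in every ratio of single genes, on the CPM scale and on the same scale within member UMIs. The intervals of DT to PBS ratios were computed from UMIs without this constant, so a printed ratio need not lie at the centre of its interval. Copies were columns named as such or matching a GENCODE M21 member transcript at 90% identity over 50% of their length (BLAST 2.17.0). Shares are of a cell's UMIs; member ratios use UMIs summed per gate. Intervals are Clopper-Pearson or conditional binomial. With 1 library per group nothing was tested. The ratio step was checked on simulated data. Analyses used Python 3.11.15, NumPy 2.4.6, SciPy 1.17.1 and pandas 2.3.3.

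The members, lists and settings were chosen with earlier results of these data known. Named members were the 12 most and 3 least uneven among those with 1000 UMIs in each library, the 2 highest and 2 lowest DT to PBS ratios of each gate (100 UMIs in each library, interval without 0), paralogues, X-linked members, and members with roles outside the ribosome; Rps18, Rps24 and the other calls were named after their values were seen. Alternatives varied cell filters, gates, added CPM, scaling, minimum UMIs, depth, free RNA, sex and the denominator. Some genes that the rule names are not reported here. The protein sequences were not used here.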

Additional observations from a re-analysis of the deposited data

Results flagged for a closer look

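Rpl18 was the one member past the fold in opposite directions in 2 gates, higher in DT in the Cd4 gate (0.38 on the log2 scale) and lower in the Ly6c2-Ccr2 gate (-0.35). The difference between the gates was not tested, its own column holds 2.61% of its UMIs, and with copies both ratios were near 0 (-0.01 and 0.01).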

How the results depend on the processing

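The Cd8b1 gate was highest and the Csf3r-S100a8 gate lowest in all 36 pairs of library and alternative setting. Between them the order changed in some. In DT the Ncr1 gate stood above Cd4 with cells of 2 or more gates kept, with 2 UMIs of each gate gene and in female-called cells. The Cd4 gate stood above Cd79a in male-called DT cells, and Ly6c2-Ccr2 above Ncr1 in female-called PBS cells. The ratio of highest to lowest gate (10.4 in PBS, 9.91 in DT) was 8.12 and 8.26 with cells of 2 or more gates kept, 11.1 and 10.2 with 2 UMIs of each gate gene, 4.70 and 5.27 from summed UMIs, 7.24 and 7.32 from means over cells, 10.9 and 10.1 with the 6 ribosomal genes outside the pattern, and 8.64 and 8.33 without the 5 members with most UMIs. It was 9.27 and 8.97 without mitochondrial, immunoglobulin, S100a8 and S100a9 UMIs, 8.28 and 7.98 without the 20 leading other genes, 10.0 in PBS thinned to 1000 UMIs, 25.8 and 20.5 with free RNA subtracted, 11.1 and 10.2 without the 5% deepest cells, 9.25 and 10.4 in male-called and 8.25 and 4.03 in female-called cells, 11.7 and 10.8 with copies, and 11.5 and 10.6 with the narrowed neutrophil gate. The median difference of DT and PBS over gates, 0.0693 percentage points, was -0.0455 with cells of 2 or more gates kept, -0.00409 from means over cells, -0.00391 without the 20 leading other genes, 0 after thinning, 0.138 with free RNA subtracted, 0.176 in male-called, -0.183 in female-called cells and 0.240 with copies; the cause of these moves was not tested.

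Of the calls between DT and PBS (14 higher, 9 lower), 20 CPM added left 6 and 4, and scaling to member UMIs left 4 lower. Differences of mean deposited log2 values gave 36 and 84, male-called cells 32 and 59, and female-called cells 104 and 38. A minimum of 20 UMIs gave 30 higher, a fold of 1.5 left 1 and 0, copies left 1 and 3, and the narrowed gate 5 lower. Members tested by gate numbered 62 to 72 in the main setting and with mean log2 values, 48 to 65 in male-called and 43 to 62 in female-called cells. The share of all genes was not taken under these settings, so the counts are not read as results about the members. Directions turned for Rpl18 in the Ly6c2-Ccr2 gate in male-called cells (0.0717) and with copies (0.00637), for Rpl18 in the Cd4 gate with copies (-0.00622), for Rpl10 with copies in the Cd8b1 (-0.0434), Cd79a (-0.10) and Ly6c2-Ccr2 (-0.0660) gates and in female-called cells of the Ly6c2-Ccr2 gate (-0.12), and for Rpl6 (0.63) and Rpl21 (1.43) in female-called cells of the Csf3r-S100a8 gate. The 6 uneven members became 21 at 1.5 times, 2 at 3 times, 60 on the CPM scale, 2 with at least 1000 UMIs, 1 with cells of 2 or more gates kept, 13 with free RNA subtracted and 21 with the narrowed gate, of which 4 were among the 6; fewer members were tested at 1000 UMIs. For these uneven counts the share of all genes was taken only in the main setting. No paired analysis was possible because each group is 1 library. Depth limits members under 100 UMIs in a gate, and the sex calls leave as few as 8 cells.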
